A study of Mus musculus with 5 samples.

Results

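A set of 10 well known genes of the blood-retina barrier were followed across injured mouse retinas: Cldn5, Ocln, Tjp1, Mfsd2a, Slc2a1, Abcb1a, Abcg2, Slco1a4, Plvap and Ly6c1. They were taken from the table of total counts by gene symbol, and all 10 were found among its 25655 symbols. The members were chosen by name after an earlier look at the same retinas had shown genes of vessel cells at lower levels with Sorbinil, so that every Sorbinil against DMSO value of these 10 genes is a description and carries no test.

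The inner blood-retina barrier is formed by the endothelial cells that line the retinal capillaries. These cells seal the gaps between them with tight junctions, suppress the traffic of vesicles across the cell, take up nutrients by dedicated carriers and pump foreign compounds back into the blood. Wnt and norrin signals from the surrounding tissue induce this state, and pericytes and glia help to maintain it. The outer barrier is formed by the retinal pigment epithelium, which shares several junction and transport genes with the endothelium.

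Total RNA of the injured retina of wildtype C57BL/6 mice was sequenced 7 days after optic nerve crush (ONC), in which the nerve behind the eye is pinched with forceps. The mice were 8 to 10 weeks old and received daily injections of the aldose reductase inhibitor Sorbinil (10 mg/kg) or of its vehicle DMSO, from the day before the crush. The groups held 3 retinas for DMSO (replicates 1, 2 and 3) and 2 for Sorbinil (replicates 1 and 3), and all of them were injured, so that no comparison with an uninjured retina was made here. Sorbinil replicate 2 was not analysed here. Whole retina was used, with no sorting of vessel cells.

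Between 56096541 and 90288552 counts fell on genes in each retina, and all 10 members passed the filter on low counts that left 14992 genes. All 12 rod markers passed the filter, and the Müller glia gene Glul was abundant in every retina (1196 to 3629 CPM, which are counts scaled to the depth of each library). Sorbinil replicate 1 stood apart from the other retinas across many cell types. On the log2 scale, its marker lists lay at -1.46 for Müller glia, -1.37 for astrocytes and -1.30 for inner retinal neurons relative to the DMSO mean (medians over the genes tested), and the rod list lay at 0.51. Sorbinil replicate 3 had 0.00, 0.10, 0.09 and -0.34 for the same lists. Levels of the 10 barrier genes are therefore given for each retina, and their fold changes also with either Sorbinil retina left out.

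A split among the barrier genes was seen. Cldn5, Ly6c1, Abcb1a and Slco1a4 were at least 2-fold lower in the Sorbinil retinas by the fitted fold change, Plvap, Abcg2 and Mfsd2a were lower by less, and Slc2a1, Ocln and Tjp1 differed little. In 7 of the 10 genes both Sorbinil retinas lay below every DMSO retina, compared to 10.5% of all genes tested. With the threshold used in the study (unadjusted p-value no larger than 0.1, difference 2-fold or more), 4 of 10 were called lower, compared to 1.35% of all genes tested, and 0 were called higher, compared to 0.36%. Because the genes were chosen with this contrast known, nothing can be read from these counts. After adjustment over all genes tested, no member was under 0.05 in edgeR's quasi-likelihood test. The adjusted p-values of the 10 genes lay between 0.758 and 0.879, and 4 of them had an unadjusted p-value under 0.05. The median log2 fold change of the 10 genes was -0.77, compared to -0.008 over all genes tested.

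**Figure D1:**
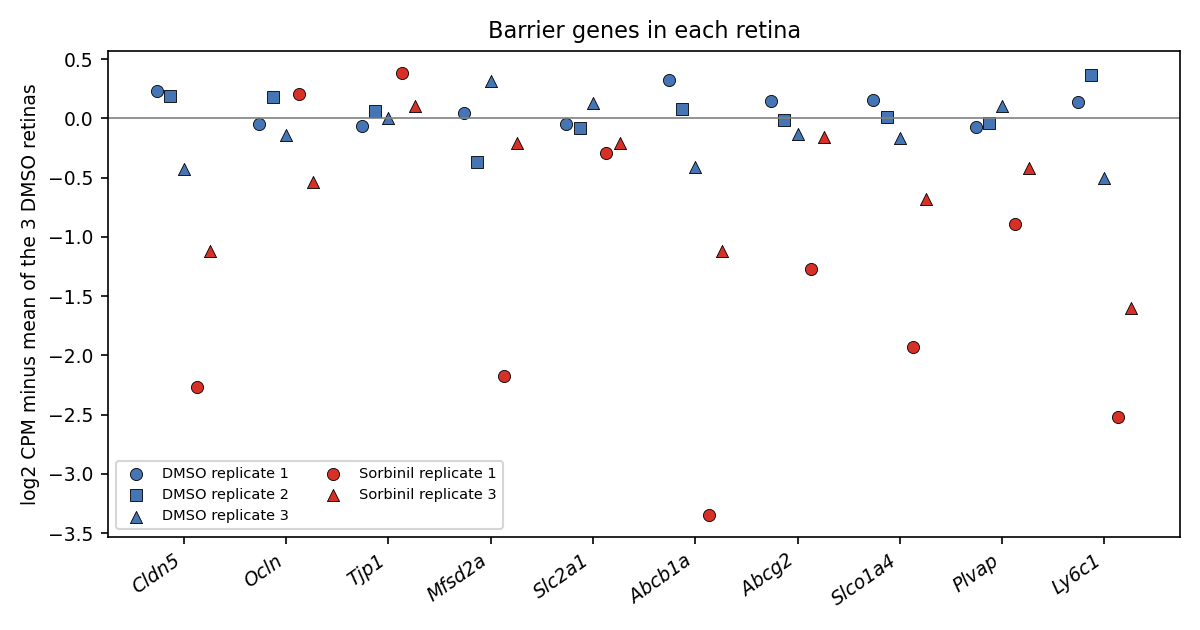
Level of each barrier gene in each retina, as log2 CPM minus the mean of the 3 DMSO retinas (vertical axis), with 1 point per retina, blue for DMSO and red for Sorbinil. Sorbinil replicate 1 is the lowest retina for Cldn5, Mfsd2a, Slc2a1, Abcb1a, Abcg2, Slco1a4, Plvap and Ly6c1, and Sorbinil replicate 3 lies close to the DMSO retinas for Mfsd2a (-0.20) and Abcg2 (-0.15).

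In whole-retina RNA, fewer endothelial cells and less RNA per endothelial cell cannot be told apart. The 10 genes had medians of -1.60 and -0.47 in Sorbinil replicates 1 and 3, whereas the DMSO retinas lay between -0.13 and 0.09. Sorbinil replicate 1 was thus much further from the DMSO retinas than Sorbinil replicate 3. Without Sorbinil replicate 1 the median log2 fold change of the 10 genes was -0.47, and without Sorbinil replicate 3 it was -1.61.

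The promoters of the 4 genes called lower are shown to allow a comparison of their sequence, since these members lay furthest below the DMSO retinas. Each line gives the 250 bases upstream of the annotated start, 5′ to 3′ on the gene's own strand, read from GRCm39 with the starts of GENCODE vM39. Capitals mark matches to any of 6 short motifs searched on both strands, those of ETS, TCF/LEF and SOX factors, the GC box of SP and KLF factors, the TATA box and the E-box, whose letters are given below. No 2 motifs overlapped in the windows shown. The windows are chr16:18595347-18595596 (plus strand) for Cldn5, chr5:8709772-8710021 (plus strand) for Abcb1a, chr6:141802037-141802286 (minus strand) for Slco1a4 and chr15:74920664-74920913 (minus strand) for Ly6c1.
Cldn5: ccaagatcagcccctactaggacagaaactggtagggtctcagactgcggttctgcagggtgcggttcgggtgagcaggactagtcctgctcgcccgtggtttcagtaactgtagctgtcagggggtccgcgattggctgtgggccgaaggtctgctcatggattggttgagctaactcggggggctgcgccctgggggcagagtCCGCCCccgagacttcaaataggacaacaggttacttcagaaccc
Abcb1a: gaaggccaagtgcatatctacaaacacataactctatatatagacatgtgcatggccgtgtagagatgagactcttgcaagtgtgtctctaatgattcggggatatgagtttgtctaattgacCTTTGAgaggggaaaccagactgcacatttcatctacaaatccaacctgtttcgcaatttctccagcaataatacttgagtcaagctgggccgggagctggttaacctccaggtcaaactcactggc
Slco1a4: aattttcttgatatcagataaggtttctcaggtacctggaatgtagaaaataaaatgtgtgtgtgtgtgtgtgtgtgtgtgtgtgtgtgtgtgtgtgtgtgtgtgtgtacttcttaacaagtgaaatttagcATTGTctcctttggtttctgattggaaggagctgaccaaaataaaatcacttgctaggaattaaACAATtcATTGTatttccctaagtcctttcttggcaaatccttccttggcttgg
Ly6c1: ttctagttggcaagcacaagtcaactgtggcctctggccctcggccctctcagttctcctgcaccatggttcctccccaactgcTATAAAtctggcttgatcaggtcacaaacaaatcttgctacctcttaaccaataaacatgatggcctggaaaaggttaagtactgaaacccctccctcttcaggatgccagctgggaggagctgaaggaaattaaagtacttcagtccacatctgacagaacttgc
The 4 windows had none of the 6 motifs in common. Cldn5 held a GC box (GGGCGG) 45 bases before the start, a motif present in 36.3% of 21770 upstream windows of protein-coding genes and in 6 of the 10 members (also Ocln, Tjp1, Slc2a1, Abcg2 and Plvap). Abcb1a held a TCF/LEF motif (CTTTGA) 127 bases before its start, as did Mfsd2a at 115 bases, compared to 14.1% of all windows. Slco1a4 held 3 SOX motifs (ACAAT), at 118, 54 and 47 bases, and was the only member among the 10 with the motif, which is found in 27% of all windows. Ly6c1 held a TATA box (TATAAA) 166 bases before its start (11.9% of all windows), and the bases nearest the start lie inside another annotated Ly6c1 transcript. An ETS motif (CGGAAG) was found only in the window of Tjp1, at 56 bases (14.3% of all windows), and no member held an E-box (CACGTG, in 6.26% of all windows). A match is a description of letters and not a bound site. The GC content of the windows was 59.6% for Cldn5, 48.4% for Ly6c1, 44.4% for Abcb1a and 37.6% for Slco1a4.

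Tight junctions seal the space between neighbouring endothelial cells. Cldn5 (ENSMUSG00000041378, chromosome 16 from 18595597 to 18597012, plus strand, 1 exon) encodes claudin-5, the main claudin of brain and retinal endothelium. It measured 7.87, 7.67 and 4.99 CPM in DMSO replicates 1, 2 and 3, and 1.37 and 3.06 CPM in Sorbinil replicates 1 and 3. Both Sorbinil retinas were below every DMSO retina, and DMSO replicate 3 was the lowest of its group. The mean was 6.84 ± 1.61 CPM under DMSO (SD, n = 3) against 2.22 ± 1.20 CPM under Sorbinil (SD, n = 2), which gave a log2 fold change of -1.62 (standard error 0.42). Leaving out Sorbinil replicate 1 gave -1.15, and leaving out Sorbinil replicate 3 gave -2.32. The DMSO retinas held 761, 613 and 277 counts of Cldn5, against 72 and 208 under Sorbinil.

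Occludin spans the membrane of the same junctions, also in epithelia such as the pigment epithelium. Ocln (ENSMUSG00000021638, chromosome 13 from 100630334 to 100689535, minus strand) measured 6.06, 7.12 and 5.69 CPM with DMSO and 7.25 and 4.32 CPM with Sorbinil. The Sorbinil retinas were the highest and the lowest of the 5, so that the groups overlapped. The log2 fold change was -0.12 (standard error 0.27). It was -0.53 when Sorbinil replicate 1 was left out, and its sign turned to 0.21 when Sorbinil replicate 3 was.

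Tjp1 (ENSMUSG00000030516, chromosome 7 from 64945898 to 65177529, minus strand) encodes ZO-1, a scaffold that ties junction proteins to the actin cytoskeleton in many cell types, including the photoreceptors and Müller glia that meet at the outer limiting membrane. It was the only member with both Sorbinil retinas above every DMSO retina. Its levels were 178, 194 and 187 CPM with DMSO, and 243 and 200.2 CPM with Sorbinil. The log2 fold change was 0.25 (standard error 0.14), and Tjp1 was not called. Leaving out Sorbinil replicate 1 gave 0.12, and leaving out Sorbinil replicate 3 gave 0.39. The rod list lay at 0.51 in Sorbinil replicate 1 and at -0.34 in Sorbinil replicate 3, where Tjp1 lay at 0.39 and 0.11, and the part of rods in the values of Tjp1 was not tested.

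The nutrient carriers differed in how far they followed Cldn5. Mfsd2a (ENSMUSG00000028655, chromosome 4 from 122840643 to 122855244, minus strand) imports lysophospholipids that carry docosahexaenoic acid and keeps vesicle traffic across the endothelium low. It was lowly expressed at 2.32, 1.74 and 2.81 CPM with DMSO and at 0.476 and 1.94 CPM with Sorbinil. Sorbinil replicate 1, with 25 counts, was far below the rest, while Sorbinil replicate 3, with 132 counts, lay within the DMSO range. Accordingly, the log2 fold change of -0.90 (standard error 0.60) became -0.22 without Sorbinil replicate 1 and -2.26 without Sorbinil replicate 3. With both Sorbinil retinas, Mfsd2a was not called.

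Slc2a1 (ENSMUSG00000028645, chromosome 4 from 118965908 to 118996365, plus strand) encodes the glucose transporter GLUT1, which barrier endothelium and pigment epithelium carry at high density and which other retinal cells also use. It had 308, 300.2 and 348 CPM with DMSO and 260.3 and 276 CPM with Sorbinil. Both Sorbinil retinas were below every DMSO retina, but the gap was small, with a log2 fold change of -0.25 (standard error 0.13). The Sorbinil retinas were close to each other here, with -0.20 when Sorbinil replicate 1 was left out and -0.29 when replicate 3 was. The pigment epithelium list had a median of -0.82 in Sorbinil replicate 1 and 0.02 in Sorbinil replicate 3, within a DMSO range of -0.47 to 0.82 for the latter, and its part in Slc2a1 was not tested.

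The efflux pumps return drugs and lipophilic compounds to the blood. Abcb1a (ENSMUSG00000040584, chromosome 5 from 8710022 to 8798575, plus strand) encodes P-glycoprotein of barrier endothelium, and its log2 CPM had the widest spread over the 5 retinas among the 10 genes. Its levels were 7.60, 6.41 and 4.55 CPM with DMSO, 0.571 CPM in Sorbinil replicate 1 and 2.77 CPM in Sorbinil replicate 3. Both Sorbinil retinas were below every DMSO retina. The mean was 6.19 ± 1.54 CPM under DMSO (SD, n = 3) against 1.67 ± 1.56 CPM under Sorbinil (SD, n = 2), which gave a log2 fold change of -1.88 (standard error 0.66). Sorbinil replicate 1 held 30 counts and differed from the DMSO mean by -3.34 on the log2 scale, and leaving it out gave a log2 fold change of -1.15. Leaving out Sorbinil replicate 3 gave -3.44. Its close copy Abcb1b, the other mouse P-glycoprotein gene, was measured at 0.869, 0.913 and 0.990 CPM with DMSO and at 0.495 and 0.648 CPM with Sorbinil, and was not called (log2 fold change -0.69, standard error 0.31). Of the 50-base windows of the Abcb1a transcript, 15.4% occur in Abcb1b as well, so that some reads could belong to either gene.

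Abcg2 (ENSMUSG00000029802, chromosome 6 from 58561505 to 58672661, plus strand), the breast cancer resistance protein, is the second major pump of this barrier. It measured 16.2, 14.5 and 13.4 CPM with DMSO, and 6.03 and 13.2 CPM with Sorbinil. Sorbinil replicate 3 lay just under the lowest DMSO retina, and the log2 fold change of -0.61 (standard error 0.34) became -0.15 without Sorbinil replicate 1 and -1.28 without Sorbinil replicate 3. With both Sorbinil retinas, Abcg2 was not called.

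Slco1a4 (ENSMUSG00000030237, chromosome 6 from 141751165 to 141802036, minus strand) encodes an organic anion transporter of brain and retinal endothelium. It had 10.9, 9.86 and 8.73 CPM with DMSO, and 2.55 and 6.11 CPM with Sorbinil. The DMSO retinas were close to each other and both Sorbinil retinas were below them. The mean was 9.83 ± 1.09 CPM under DMSO (SD, n = 3) against 4.33 ± 2.52 CPM under Sorbinil (SD, n = 2), which gave a log2 fold change of -1.18 (standard error 0.39). Without Sorbinil replicate 1 it was -0.68 and Slco1a4 was no longer called, and without Sorbinil replicate 3 it was -1.95. Slco1a4 had 1054, 788 and 485 counts under DMSO, against 134 and 415 under Sorbinil.

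Plvap (ENSMUSG00000034845, chromosome 8 from 71948674 to 71964506, minus strand) forms the diaphragms of vesicles and fenestrae. In contrast to the other members, it marks endothelium without a tight barrier, such as the choriocapillaris, and is kept low in retinal capillaries. It was measured at 2.81, 2.88 and 3.19 CPM with DMSO and at 1.58 and 2.21 CPM with Sorbinil. Both Sorbinil retinas were below the narrow DMSO range, on the same side as for Cldn5. The log2 fold change was -0.64 (standard error 0.26), which did not reach 2-fold, and -0.41 and -0.90 without Sorbinil replicates 1 and 3. The exons of Plvap share 834 bases with Gtpbp3 on the opposite strand (a mean of 708 counts), and no source states that strand was used in counting.

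Ly6c1 (ENSMUSG00000079018, chromosome 15 from 74915847 to 74920686, minus strand) encodes a surface protein anchored to the membrane by a lipid, a common marker of mouse brain endothelium. Among the members it had the largest fitted difference. It measured 6.64, 7.81 and 4.25 CPM with DMSO, and 1.03 and 1.97 CPM with Sorbinil. Both Sorbinil retinas were well below every DMSO retina, with 54 and 134 counts against 642, 624 and 236. The mean was 6.23 ± 1.81 CPM under DMSO (SD, n = 3) against 1.50 ± 0.67 CPM under Sorbinil (SD, n = 2), which gave a log2 fold change of -2.05 (standard error 0.42). Leaving out Sorbinil replicate 1 gave -1.65, and leaving out Sorbinil replicate 3 gave -2.60. The transcript shares 37.5% of its 50-base windows with 3 other genes. The largest part, 24.3%, is shared with Ly6c2, a marker of inflammatory monocytes. Ly6c2 itself held 3, 4 and 0 counts with DMSO and 0 in both Sorbinil retinas. How reads that match several genes were counted is not given, so that some reads could belong to either gene. The list of microglia and monocytes (9 of 11 genes tested) had medians of -0.99 and -0.12 in Sorbinil replicates 1 and 3. None of its genes was called, compared to 1.35% of all genes tested called lower and 0.36% higher.

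Per kilobase of exon, the 10 genes covered a wide range of levels. Slc2a1 was the highest with 67.9 ± 5.42 CPM per kilobase (SD, n = 3 DMSO retinas), followed by Tjp1 with 23.5 ± 1.05 and Cldn5 with 4.83 ± 1.14. The DMSO ranges of these 3 genes did not overlap with each other or with the next gene. Ly6c1 (1.89 ± 0.55) overlapped with Abcg2 (1.54 ± 0.15). Slco1a4 (1.15 ± 0.13), Abcb1a (1.01 ± 0.25), Mfsd2a (0.857 ± 0.200), Plvap (0.770 ± 0.052) and Ocln (0.670 ± 0.079) formed a series in which each overlapped with its neighbour. With the longest transcript in place of the union of exons, Slco1a4 (2.47) and Abcg2 (2.45) were above Ly6c1 (2.21), so the order of these 3 genes depends on the length used. In the Sorbinil retinas the means ran from 57.2 CPM per kilobase for Slc2a1 to 0.272 for Abcb1a, and Ocln (0.616) was no longer the lowest. The smallest fold changes between the groups belonged to the 2 most abundant members, Slc2a1 and Tjp1, and to the least abundant, Ocln.

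**Figure D2:**
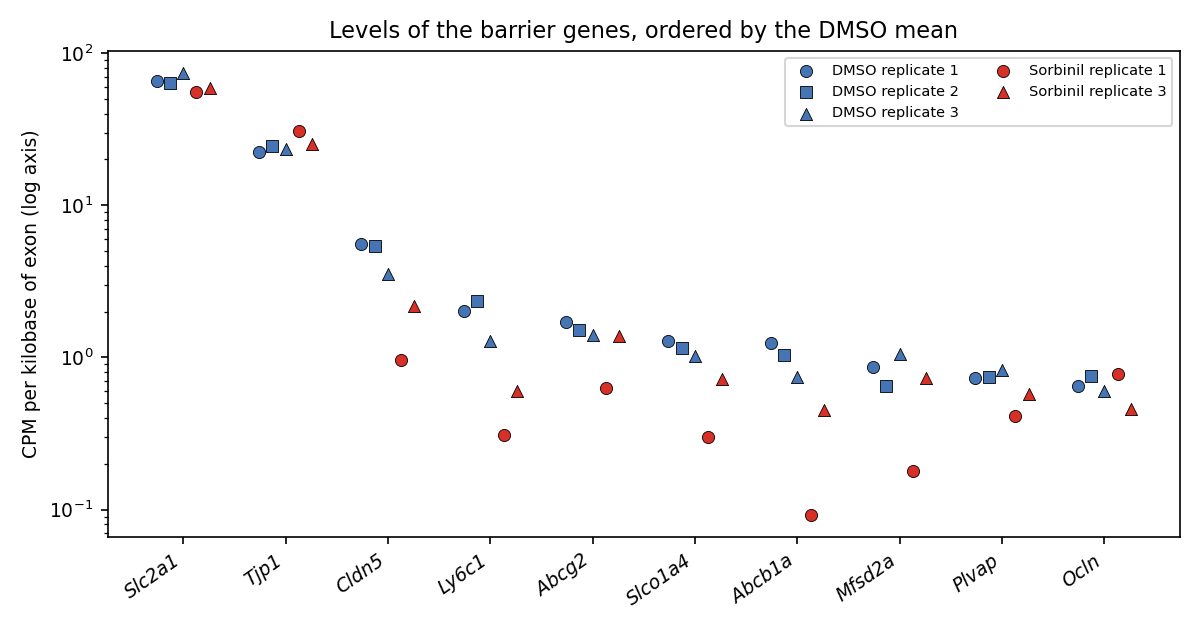
Level of each barrier gene as CPM per kilobase of exon on a log axis, with 1 point per retina, blue for DMSO and red for Sorbinil, and genes ordered by their DMSO mean. Slc2a1 (55.5 to 74.1) and Tjp1 (22.4 to 30.7) lie well above the other 8 genes, and Abcb1a in Sorbinil replicate 1 (0.0928) is the lowest point.

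The identity genes of endothelium mark these cells whether or not they form a barrier. Of the 20 genes tested, 9 were called lower (compared to 1.35% of all genes tested) and 0 higher (compared to 0.36%), and 20 had a log2 fold change below 0, with a median of -1.17. In 13 of them both Sorbinil retinas were below every DMSO retina (compared to 10.5% of all genes tested), and in the other 7 the groups overlapped. No gene of the list had an adjusted p-value under 0.758. Erg, a transcription factor of endothelium, had a log2 fold change of -2.24 (standard error 0.59), with 99, 69 and 34 counts under DMSO against 4 and 18 under Sorbinil. Robo4, a guidance receptor of endothelium, had -2.01 (standard error 0.53), and the von Willebrand factor gene Vwf had -1.93 (standard error 0.64). Tie1, an endothelial receptor tyrosine kinase, had -1.83 (standard error 0.49). The list was detected in every retina, with at least 1 count for each gene. Its summed level ran from 338 to 529 CPM with DMSO and was 172 and 438 CPM in Sorbinil replicates 1 and 3. Most of the sum in every retina came from Kdr and Flt1 (277 and 109 CPM in Sorbinil replicate 3), which both overlapped between the groups. The median of the list lay at 0.18, 0.14 and -0.37 in DMSO replicates 1, 2 and 3, and at -2.20 and -0.61 in Sorbinil replicates 1 and 3. Thus DMSO replicate 3 and Sorbinil replicate 3 were nearer to each other than the Sorbinil retinas were. Pecam1 (CD31) overlapped between the groups, with 9.31, 9.47 and 7.43 CPM with DMSO and 9.17 and 5.69 CPM with Sorbinil, and a log2 fold change of -0.24.

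To express the barrier genes relative to endothelium, the median log2 CPM of the 20 identity genes was subtracted in each retina. This is a description, since both lists come from the same libraries. Relative to its DMSO mean, the subtracted median lay at 0.24, 0.34 and -0.59 in DMSO replicates 1, 2 and 3. It lay at -2.64 and -0.68 in Sorbinil replicates 1 and 3. A gene whose CPM did not change would therefore lie above every DMSO retina in both Sorbinil retinas after the subtraction. Positive values below thus do not show a raised level. On this scale, 7 of the 10 members overlapped between the groups. The share of all genes tested that overlapped, or lay below, was not counted for any reference used here. Cldn5 differed by -0.03 (log2, Sorbinil minus DMSO), Slco1a4 by 0.36 and Ly6c1 by -0.40. Abcb1a was the only member with both Sorbinil retinas below every DMSO retina, at -0.57, and Tjp1 (1.91) and Abcg2 (0.95) were above in both. The remaining members differed by 0.47 for Mfsd2a, 1.01 for Plvap, 1.41 for Slc2a1 and 1.50 for Ocln, and most of each difference lay in Sorbinil replicate 1 except for Mfsd2a. The choice of reference mattered. With Cdh5 (VE-cadherin) as the reference, no member was below in both Sorbinil retinas and Abcb1a differed by -0.27. With Pecam1 as the reference, 3 members were below, Abcb1a at -1.97, Ly6c1 at -1.80 and Cldn5 at -1.43, and the median over the 10 genes was -0.69 where it was 0.71 with the list. The mean of the list, a reference chosen after the data were seen, also put these 3 members below, at -0.89, -0.72 and -0.35.

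**Figure D3:**
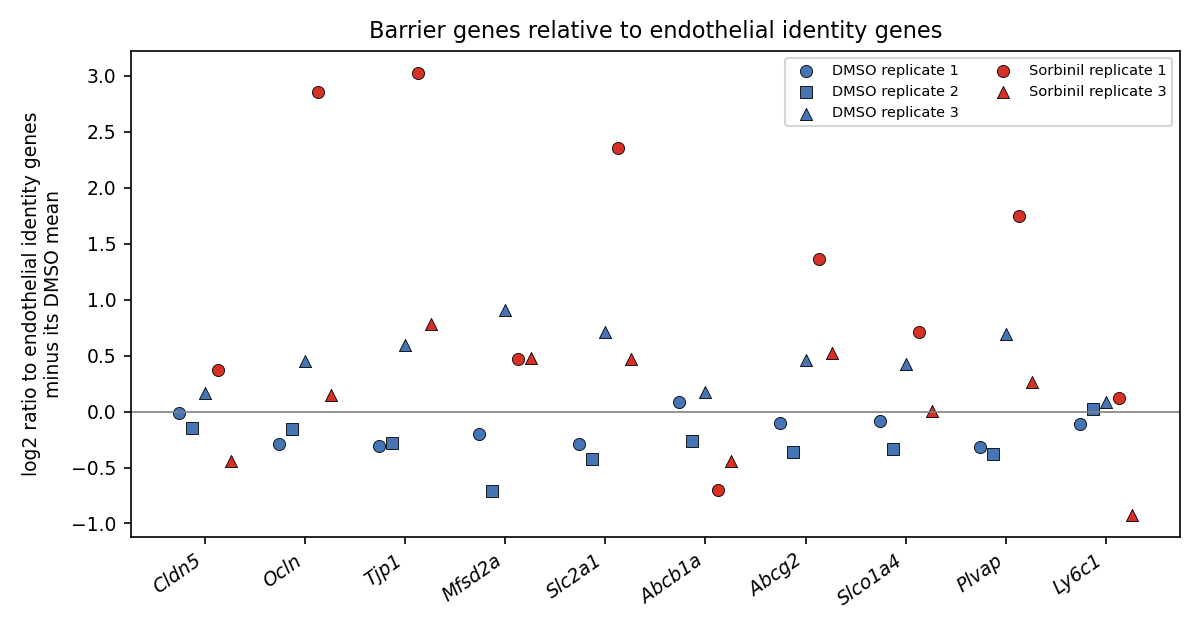
Level of each barrier gene relative to the median of 20 endothelial identity genes in the same retina (log2 ratio minus its DMSO mean, vertical axis), with 1 point per retina, blue for DMSO and red for Sorbinil. Cldn5 (0.38 and -0.44 in Sorbinil replicates 1 and 3) and Ly6c1 (0.12 and -0.92) lie on either side of 0, while Ocln (2.85) and Tjp1 (3.03) lie far above it in Sorbinil replicate 1. The median of the identity genes itself lay at -2.64 in that retina, relative to its DMSO mean.

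The genes whose profile over the 5 retinas was most like that of Cldn5 were sought among all genes tested, by the root mean square difference of log2 CPM after centring each gene on its mean. The nearest were Tie1 (0.13), Tek (0.16), Tinagl1 (0.16), Mgp (0.18) and Gata2 (0.19). Tie1 and Tek encode receptor tyrosine kinases of endothelium, Gata2 a transcription factor used by endothelium and blood precursors, and Mgp a matrix protein of vessel walls. Of the members, Ly6c1 was the closest to Cldn5 (0.22, 10th of all genes), followed by Slco1a4 (0.24, 27th) and Abcb1a (0.44, 251st). Abcg2 (0.51), Mfsd2a (0.56) and Plvap (0.62) were further away, and Slc2a1 (0.84), Ocln (0.98) and Tjp1 (1.08) were the furthest. All genes share the same 5 libraries, and Sorbinil replicate 1 weighs most in these distances.

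Other genes of the barrier were drawn from lists by function. Among partners of the tight and adherens junctions, 0 of 17 genes tested (of 18) were called in either direction. Of all genes tested, 1.35% were called lower and 0.36% higher. The median log2 fold change of the partners was -0.04. In 1 partner both Sorbinil retinas were below every DMSO retina (compared to 10.5% of all genes tested), and in 3 both were above. The share of all genes with both above was not counted. The most abundant partner, Ctnnb1 (β-catenin), averaged 335 ± 13.4 CPM under DMSO (SD, n = 3) against 306 ± 28.6 CPM under Sorbinil (SD, n = 2), a log2 fold change of -0.13. Like Ocln and Tjp1, most of these partners are used by epithelia and neurons too.

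Among further carriers and surface proteins of barrier endothelium, 5 of 25 genes tested were called lower (compared to 1.35% of all genes tested), 0 higher, and the median log2 fold change was -0.57. Slco1c1, the carrier of thyroxine and a relative of Slco1a4, measured 8.67, 6.05 and 5.15 CPM with DMSO and 2.13 and 3.67 CPM with Sorbinil (log2 fold change -1.19, standard error 0.36). The thiamine transporter Slc19a3 had 45, 45 and 24 counts under DMSO against 3 and 15 under Sorbinil (-1.75, standard error 0.58). Ly6a, a relative of Ly6c1 on the same vessels, had a log2 fold change of -1.48 (standard error 0.54), and the riboflavin transporter Slc52a3 had -1.22 (standard error 0.50). For Ly6a and Slc52a3, DMSO replicate 3 lay close to the Sorbinil retinas, at 2.70 CPM compared to 1.22 and 2.49 CPM for Ly6a. The fifth was the amino acid carrier Slc38a5 (-2.12), which is named because it completes the count.

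The genes of caveolae and transcytosis, the vesicle traffic that Mfsd2a holds down, had 1 of 11 genes tested (of 12) called lower (compared to 1.35% of all genes tested), 0 higher, and a median of -0.24. This gene, Cavin2, a coat protein of caveolae, measured 2.43, 1.89 and 1.84 CPM with DMSO and 0.495 and 1.05 CPM with Sorbinil (log2 fold change -1.40, standard error 0.41). Of the genes that induce the barrier, 5 of 18 tested (of 19) were called lower (compared to 1.35% of all genes tested) and 0 higher, with a median of -0.42. All 5 encode transcription factors. Foxq1 measured 1.59, 1.55 and 1.69 CPM with DMSO and 0.285 and 0.707 CPM with Sorbinil (-1.68, standard error 0.44). Lef1, which carries the Wnt signal to DNA, had -1.19 (standard error 0.49), Sox18 had -1.47 (standard error 0.60), Foxf2 had -1.71 (standard error 0.70) and Sox17, named to complete the count, had -1.75. The list had medians of -1.08 and -0.01 in Sorbinil replicates 1 and 3.

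Genes that mark leaky or activated vessels, the group closest to Plvap, had 0 of 7 genes tested (of 11) called. Of all genes tested, 1.35% were called lower and 0.36% higher, so 0 calls in so short a list show little. In this list 6 of 7 genes were below 0, with a median of -0.53, compared to -0.008 over all genes tested. The growth factor Vegfa, which opens vessels and is made mostly by glia and neurons, had 59.9, 57.6 and 51.4 CPM with DMSO and 40.0 and 54.1 CPM with Sorbinil (-0.26). The remaining 4 genes of the list had too few counts to be tested.

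Lists of the cells around the endothelium were measured in the same retinas. Pericytes and smooth muscle, which wrap the capillaries and arterioles, had 3 of 12 genes called lower (compared to 1.35% of all genes tested), 0 higher and a median of -0.70. The 3 genes were Acta2 (-1.24), Tagln (-1.06) and Des (-1.50), all of the muscle cytoskeleton. The list lay at -1.57 and -0.25 in Sorbinil replicates 1 and 3, while the DMSO retinas ranged from -0.07 to 0.06. None of the genes tested was called for Müller glia (10), astrocytes (6), microglia and monocytes (9), inner retinal neurons (17), pigment epithelium (12) or rods (12), with medians of -0.58, -0.48, -0.55, -0.47, -0.53 and 0.15. With 1.35% of all genes tested called lower and 0.36% higher, 0 calls in lists of this size show little. In Sorbinil replicate 3 the first 5 of these lists lay between -0.12 and 0.10, and the rods lay at -0.34. In the same retina the pericyte list lay at -0.25, the barrier genes at -0.47 and the identity genes at -0.61. Of the most abundant genes of these lists, Glul (list of Müller glia) had a log2 fold change of -0.56, and Slc1a2 (list of astrocytes) had 0.49. Prkca (list of inner retinal neurons) had 0.12 and Rlbp1 (list of pigment epithelium) -0.59. Slc1a2 went against the median of its list in Sorbinil replicate 1 (0.65 against -1.37), and Rlbp1 in DMSO replicate 3 (-0.05 against 0.82). Which cells carried these genes was not tested. Of the blood list 5 of 10 genes were tested and 1, the neutrophil gene S100a8, was called lower (compared to 1.35% of all genes tested). It held 16, 56 and 1 counts under DMSO against 0 and 1 under Sorbinil. Mitochondrially encoded genes took 1.94% to 2.66% of the counts with DMSO and 3.70% and 4.05% with Sorbinil. The part of these values in those of the barrier genes was not tested.

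**Figure D4:**
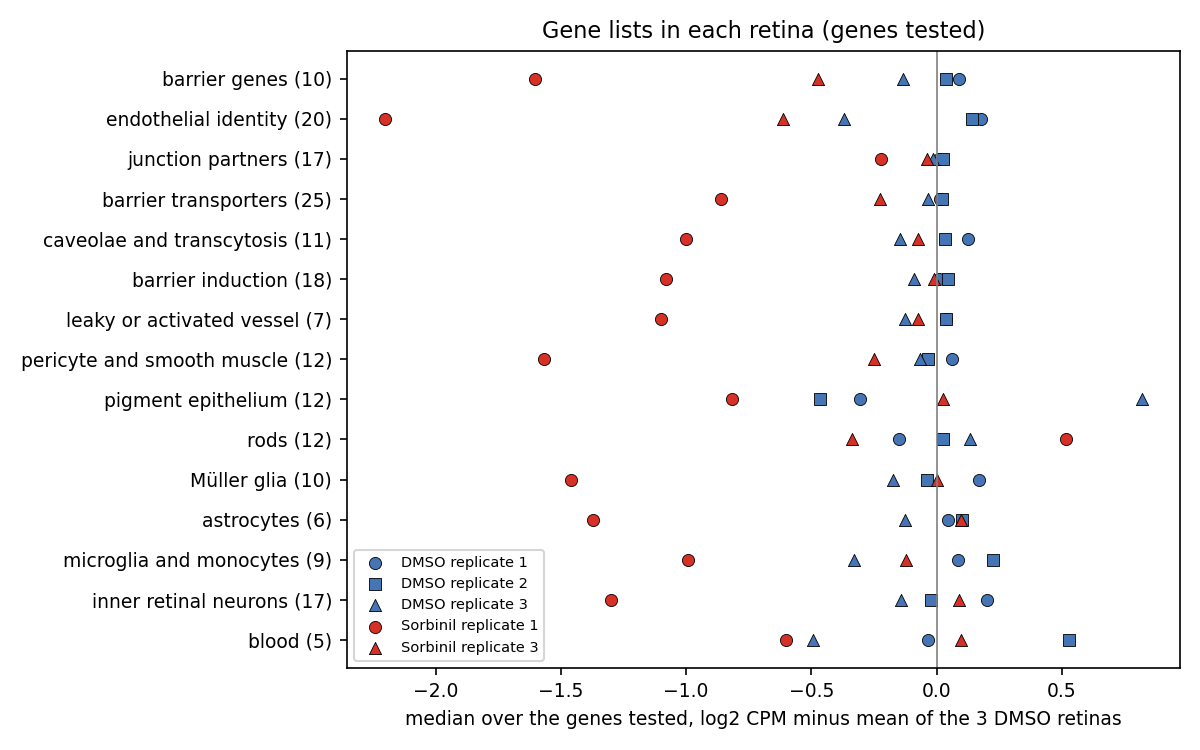
Median over the genes tested of each list (number of genes in parentheses) in each retina, as log2 CPM minus the mean of the 3 DMSO retinas (horizontal axis), with 1 point per retina, blue for DMSO and red for Sorbinil. Sorbinil replicate 1 is the lowest retina in every list but the rods, and Sorbinil replicate 3 lies below every DMSO retina for the barrier genes, the identity genes, the junction partners (-0.04), the transporters (-0.22), the pericytes (-0.25) and the rods (-0.34).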

How the data were processed

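Total counts per gene of 5 injured retinas (3 DMSO, 2 Sorbinil, each of a separate mouse) were deposited by the authors as whole-number counts without normalization, after adaptor trimming and mapping to GRCm39 in CLC Genomics Workbench with default settings. The annotation, the use of strand and the handling of reads that match several genes are not given in the sources used here. Because reads carry no molecular identifiers, counts are not independent molecules. The sample labels and the methods name different library kits.

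The members, gene lists and tests were chosen with earlier results of these data known. The analysis used edgeR 4.0.16 (limma 3.58.1, R 4.3.3): filterByExpr by group (minimum count 10), TMM scaling, glmQLFit and glmQLFTest on the whole table, Benjamini-Hochberg adjustment, no covariate. The study's threshold was used, that is, unadjusted p no larger than 0.1 with a 2-fold difference or more. CPM are per TMM-scaled library, and log2 CPM used a prior count of 2. The 2 most similar retinas had a chi-square of 25.5 per degree of freedom, far beyond sampling noise, and no library was counted as a repeat of another. The steps were tested on simulated data. Alternatives were other filters, scalings, tests (DESeq2 1.42.0) and thresholds, the replicate block, and leaving out each retina.

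Named genes were the 10 members, the called genes of each list (up to 4 by p-value) or otherwise its most abundant gene, close copies, and the 5 genes nearest to Cldn5. For 2 of the lists the most abundant gene is not reported here. Positions, lengths and promoter starts are from GENCODE vM39 on GRCm39. Shared sequence was counted in exact 50-base windows of the transcripts, with candidates found by blastn 2.17.0.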

Additional observations from a re-analysis of the deposited data

How the results depend on the processing

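Of 140 fold changes of the 10 barrier genes under the alternatives, 135 kept their direction and their side of the threshold. Slco1a4 (-0.68) no longer reached 2-fold without Sorbinil replicate 1. Mfsd2a (-2.26) and Abcg2 (-1.28) went past 2-fold without Sorbinil replicate 3, where Ocln turned to 0.21 (range -0.53 to 0.21 with each retina left out). Mfsd2a (-1.37) gained a call with the replicate block. Under the filter and scaling alternatives, the likelihood ratio test and the Wald test, 4 members were called lower, and the same 4 genes.

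The genes called lower among all genes were 119 with at least 10 counts in every retina, 293 with no filter, 129 with the unadjusted limit at 0.05, and 0 with an adjusted limit of 0.1. At that adjusted threshold 0 members and 0 identity genes were called by edgeR's quasi-likelihood test, with 751 genes and 4 members at an unadjusted p-value under 0.05. By the likelihood ratio test and the DESeq2 Wald test, 14 and 21 genes had an adjusted p-value under 0.05, with 1 member, Ly6c1 (0.0186 and 0.00304). In the quasi-likelihood test, 4 genes and 0 members were under 0.05 with the replicate block, and 5576 genes and 8 members (0.00461 to 0.0362) without Sorbinil replicate 3. With each retina left out in turn, the genes called lower ran from 129 (without DMSO replicate 1) to 2656 (without Sorbinil replicate 3), the identity genes from 5 to 18 in the same fits, the median of the members from -1.61 (without Sorbinil replicate 3) to -0.47 (without Sorbinil replicate 1), and the members called from 3 to 6. These fits with a single Sorbinil retina assume that it varies like the DMSO retinas. The cause of these changes was not tested.

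Whether the replicate numbers pair the retinas could not be decided here. The deviations of same-numbered retinas from their group means correlated at -0.24 and -0.12. Sorbinil replicates 1 and 3 were the only retinas of their group, so their deviations mirror each other. DMSO replicate 1 with Sorbinil replicate 3 therefore gave 0.24, and DMSO replicate 3 with Sorbinil replicate 1 gave 0.12. With the replicate number as a block, 153 genes and 5 members were called lower, and the median of the members was -1.01. With library size only, 33 genes were called higher in place of 54, and the median of all genes was -0.11. A member with few counts, such as Mfsd2a with 25 in Sorbinil replicate 1, is less precise than Slc2a1 with 13680.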

Other observations

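Several genes that were too scarce to be tested had most of their counts in DMSO replicate 2, and they are named here after their values were seen. Selp and Sele, the selectins that activated endothelium displays to capture leukocytes, had 33 and 22 counts in that retina, between 0 and 4 counts in DMSO replicates 1 and 3, and 0 in both Sorbinil retinas. The neutrophil gene S100a9 had 68 counts there, 11 and 1 in DMSO replicates 1 and 3, and 0 in both Sorbinil retinas. The platelet gene Ppbp had 27 counts there, compared to 7 and 2 in the other DMSO retinas and 0 and 1 in the Sorbinil retinas. In DMSO replicate 2 the median of the 10 members lay at 0.04 relative to the DMSO mean, which includes this retina. Among the DMSO retinas it was the lowest for Mfsd2a (-0.36) and Slc2a1 (-0.08). It was the highest for Ly6c1 (0.37), Ocln (0.18) and Tjp1 (0.06). A link between the scarce genes and the barrier genes was not tested.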
